A study of Homo sapiens with 4 samples.

Results

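The genes described here were the LIN28 and IGF2BP families of oncofetal RNA-binding proteins, the HMGA chromatin proteins, and 3 enzymes that make or destroy microRNA precursors, measured with and without MYCN knockdown in a neuroblastoma cell line. They were taken by symbol: LIN28A, LIN28B, IGF2BP1, IGF2BP2, IGF2BP3, HMGA1, HMGA2, DROSHA, DICER1 and DIS3L2, which are 10 of the 26364 genes listed. In brief, HMGA1 and IGF2BP1 fell upon MYCN knockdown, whereas LIN28B, IGF2BP3, DROSHA, DICER1 and DIS3L2 did not pass the test. LIN28A, IGF2BP2 and HMGA2 were at or near 0 in both groups.

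RNA-seq was performed on 4 samples of BE(2)C, a human neuroblastoma line in which the MYCN gene is amplified. The Ctrl group (n = 2) received a control siRNA and the MYCN KD group (n = 2) an siRNA against MYCN, so every sample carried the MYCN amplification and had been transfected. The labels give siRNA at 80 nM with Lipofectamine 2000 for 6 h and extraction of RNA on the next day, so the values describe an early time after transfection. By the study's methods, medium was then added, which lowered the siRNA concentration. All samples came from 1 cell line. The study's methods call the RNA-seq replicates biological, and the labels do not say whether they were separate cultures. The p-values measure the spread between these samples as adjusted by the authors, which may not be that of independent replicates.

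LIN28A and LIN28B bind the precursors of the let-7 microRNAs and block their maturation. In the nucleus the precursors are cut out of longer transcripts by DROSHA, and in the cytoplasm they are cut again by DICER1. Precursors held by LIN28A can receive a tail of uridines from terminal uridylyltransferases, and DIS3L2 is the exonuclease that degrades such tailed precursors. Mature let-7 represses transcripts that carry sites matching its seed, the short stretch near its 5′ end that pairs with the target. LIN28B, HMGA2 and the IGF2BP genes are known let-7 targets, so LIN28B and let-7 repress each other. IGF2BP proteins bind messenger RNAs and often stabilise them, and HMGA proteins bind AT-rich DNA and alter chromatin structure. In neuroblastoma, LIN28B is known as an oncogene that raises the MYCN protein by lowering let-7.

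The mature let-7 sequences are shown because their shared seed defines the sites counted in the members. All 9 members of the family in RefSeq, miR-98 included, carry the same seed at bases 2 to 8, here in capitals, so they are grouped as 1 seed family. Mature microRNAs themselves were not measured in these libraries.
hsa-let-7a-5p: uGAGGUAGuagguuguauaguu
hsa-let-7d-5p: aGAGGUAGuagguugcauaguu
hsa-let-7g-5p: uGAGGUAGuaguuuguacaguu
hsa-let-7i-5p: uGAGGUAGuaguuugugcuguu
hsa-miR-98-5p: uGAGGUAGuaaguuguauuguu

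The DNA letters opposite this seed are CTACCTC, and an 8-base site adds the A that lies opposite the first base of the microRNA (CTACCTCA). The 3′ UTR of 1 canonical GENCODE transcript a gene was read on its own strand for 8-base sites, for CTACCTC without the A, and for TACCTCA without the leading C, counting each position once. LIN28B held 2 sites of 8 bases and 3 shorter ones in 4549 bases. IGF2BP1 held 3 of 8 bases and 2 shorter ones in 6701 bases, and HMGA2 held 1 of 8 bases and 6 shorter ones in 2999 bases. IGF2BP2 held 1 site of 8 bases and 2 shorter ones, IGF2BP3 and LIN28A held 1 site of 8 bases each, HMGA1 had 1 CTACCTC, and DICER1 had 2 TACCTCA. The 3′ UTRs of DROSHA and DIS3L2 held none of these letters. Over 19425 genes, 3.67% had an 8-base site and 15.5% had any of the 3 kinds. Among genes whose 3′ UTR was of like length (within 25%), 0.106% had as many sites as LIN28B, 0.0361% as many as HMGA2 and 0.524% as many as IGF2BP1, against 14.7% for HMGA1 and 27.6% for LIN28A. A match of letters is a description and not a measured binding site.

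The 8-base sites of LIN28B, IGF2BP1, IGF2BP3 and HMGA2 and the shorter site of HMGA1 are shown with their surroundings, since these genes carry the results that follow. Coordinates are of GRCh37, the build to which the reads were mapped, sequences run 5′ to 3′ along the transcript, and the capitals mark the letters opposite the seed.
LIN28B, chr6:105526688-105526717 (+): cccggttgcaaagtCTACCTCAtgcaagta
LIN28B, chr6:105529297-105529326 (+): tttacagcaaaaggCTACCTCAtagttgat
IGF2BP1, chr17:47128424-47128453 (+): gtgtgcgaagtaaaCTACCTCAaggtatga
IGF2BP1, chr17:47131061-47131090 (+): agcagtgctagtaaCTACCTCAcagagccc
IGF2BP1, chr17:47131715-47131744 (+): tataaatggattaaCTACCTCAatccttac
IGF2BP3, chr7:23351406-23351435 (-): gcatttttactcaaCTACCTCAggtattca
HMGA2, chr12:66357079-66357108 (+): ccaacgttcgatttCTACCTCAgcagcagt
HMGA1, chr6:34213607-34213635 (+): cctctgttcacaaaCTACCTCtggacagt

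**Figure D1:**
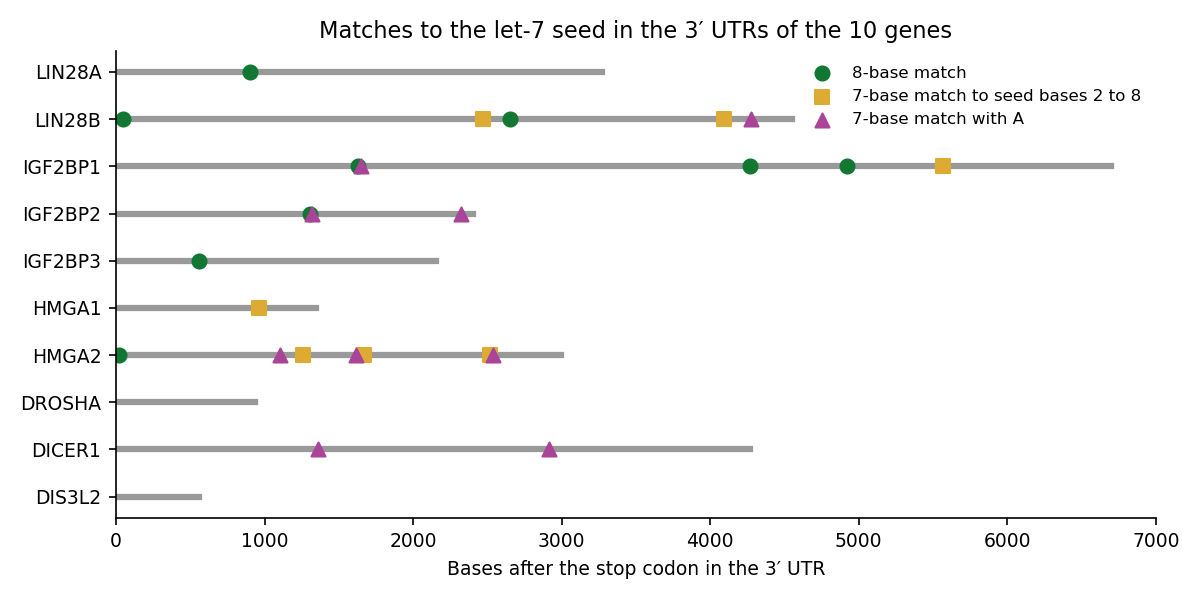
Positions of let-7 seed matches in the 3′ UTRs of the 10 genes, drawn as distance in bases from the stop codon along 1 canonical transcript a gene (horizontal axis), with circles for 8-base sites, squares for 7-base sites opposite bases 2 to 8 and triangles for 7-base sites with the A. HMGA2 has 7 matches, LIN28B and IGF2BP1 have 5 each, and DROSHA and DIS3L2 have none.

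Values are RPKM, reads scaled to gene length and library size, which allow levels to be compared between genes. Whole reads behind each value were recovered from the steps of the RPKM scale, and their totals ranged from 29055819 to 34142988 reads a sample. They had been adjusted for unwanted variation before deposit and do not give the raw depth. MYCN, the targeted gene, was at 1068 and 1073 RPKM in Ctrl against 720.2 and 718 in MYCN KD, which gave -0.57 as log2 fold change (SE 0.03, adjusted p = 0.00361 by limma over 11411 genes). All 10 adrenergic neuroblastoma markers were expressed, and 6 were higher and 1 lower in MYCN KD (median log2 fold change 0.36), with PHOX2A at 0.97 and DBH at 0.92. Of 9 markers of other cells, COL1A1 alone reached a mean of 1 RPKM, KRT5 was at 0, and their summed level was 0.922 and 0.957 RPKM in Ctrl against 2.28 and 2.21 in MYCN KD. The part of these marker differences in any result was not tested. Replicates within each group differed beyond counting noise, and a gene that stood higher in replicate 1 than in replicate 2 of Ctrl mostly stood lower in replicate 1 than in replicate 2 of MYCN KD (correlation of deviations -0.98 across tested genes, which are not independent replicates). Among the members, 6 of the 7 tested were higher in Ctrl 2 than in Ctrl 1 and in MYCN KD 1 than in MYCN KD 2. HMGA1 was mirrored too but in the other order, higher in Ctrl 1 than in Ctrl 2 and in MYCN KD 2 than in MYCN KD 1.

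Upon MYCN knockdown, 2 of the 7 members tested passed an adjusted p of 0.05, both lower. Over all genes tested, 48.1% passed in either direction and 22.8% were lower, so 2 of 7 is no result about these genes as a group. The groups did not overlap for 4 of the 7, namely HMGA1, IGF2BP1 and DROSHA (lower) and DIS3L2 (higher), where 76.2% of all tested genes did not overlap (35.8% lower and 40.4% higher). For the 7 members the median log2 fold change was 0.07, and for all tested genes 0.03, so changes are given with no further centring. The rule takes members by name, so these counts are a description. In bulk RNA, a lower level in every cell and fewer cells that express a gene cannot be told apart.

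**Figure D2:**
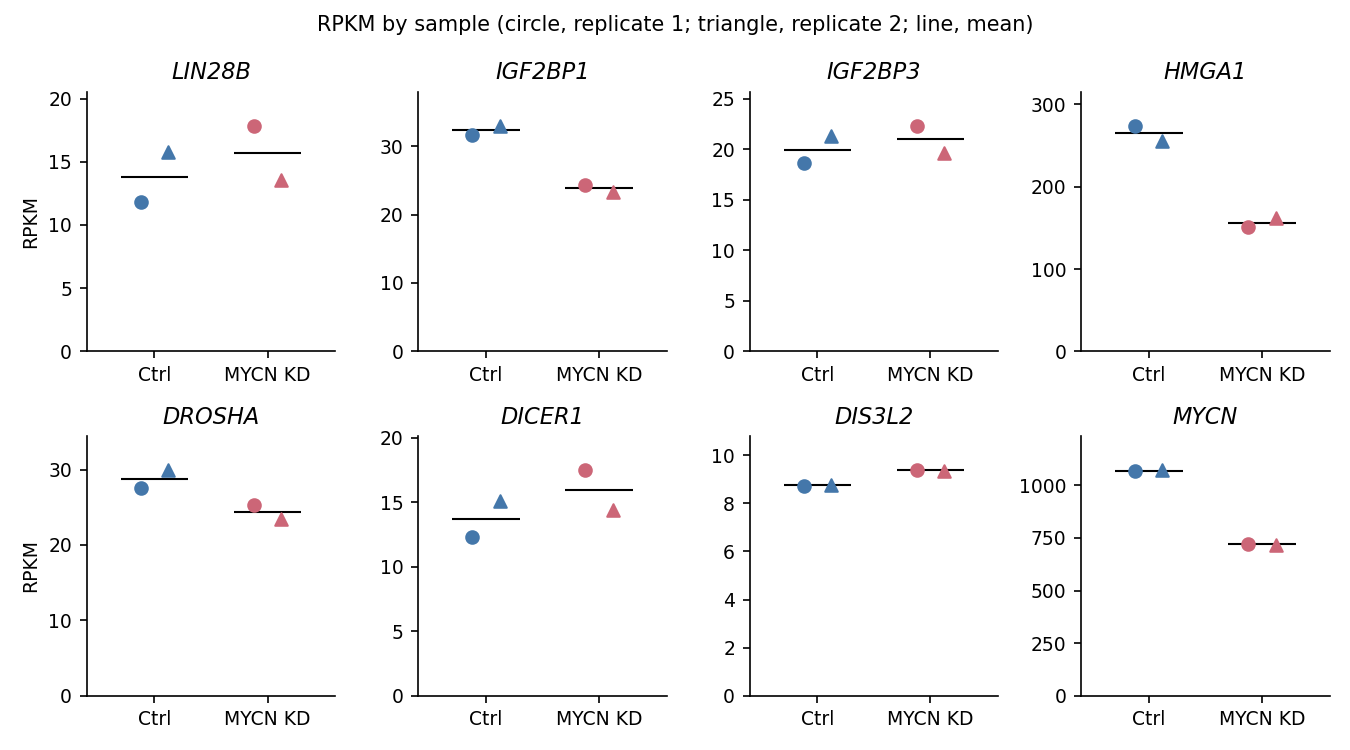
RPKM (axes from 0, a scale for each panel) of the 7 tested members and MYCN in each Ctrl and MYCN KD sample, with circles for replicate 1, triangles for replicate 2 and a line at the group mean. The groups lie apart for IGF2BP1, HMGA1, DROSHA, DIS3L2 and MYCN and overlap for LIN28B, IGF2BP3 and DICER1.

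The order of levels in Ctrl ran from HMGA1 through IGF2BP1, DROSHA, IGF2BP3, LIN28B and DICER1 to DIS3L2. HMGA1 was at 265 ± 12.8 RPKM (SD, n = 2), above 97.4% of the tested genes, and no other member came near it. IGF2BP1 followed at 32.3 ± 0.926 RPKM and DROSHA at 28.8 ± 1.64 RPKM. IGF2BP3 stood at 19.98 ± 1.85 RPKM, LIN28B at 13.8 ± 2.77 RPKM, DICER1 at 13.7 ± 1.95 RPKM and DIS3L2 at 8.75 ± 0.0291 RPKM. LIN28B and DICER1 differed by less than their spread. In MYCN KD, IGF2BP1 at 23.8 ± 0.636 RPKM and DROSHA at 24.3 ± 1.32 RPKM could not be ordered either, and the same held for DICER1 at 15.96 ± 2.19 RPKM and LIN28B at 15.7 ± 3.04 RPKM.

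Of the LIN28 proteins, which hold let-7 precursors, LIN28B was expressed and LIN28A was not detectable above a few reads. LIN28B (chr6:105384491-105531207, + strand, 4 exons) was at 11.9 and 15.8 RPKM in Ctrl against 17.8 and 13.5 in MYCN KD. The groups overlapped, since Ctrl 2 lay above MYCN KD 2. The log2 fold change was 0.17 (SE 0.21, 95% interval -0.43 to 0.78, adjusted p = 0.524 by limma). Without Ctrl 1 it was -0.02 and without MYCN KD 1 -0.01, whereas without Ctrl 2 it was 0.37 and without MYCN KD 2 0.36. The sign thus depended on the sample left out, and leaving out the same-numbered sample of either group gave near-equal values. LIN28A (chr1:26737308-26756219, + strand) had 1 read in Ctrl and 2 reads in MYCN KD, with counting intervals of 0.0253 to 5.57 and 0.242 to 7.22 reads, and no difference was detectable at this depth.

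In the IGF2BP family, which binds and stabilises messenger RNAs, IGF2BP1 fell and IGF2BP3 did not pass the test. IGF2BP1 (chr17:47074747-47133507, + strand, 15 exons) was at 31.7 and 33.0 RPKM in Ctrl against 24.3 and 23.4 in MYCN KD. Both MYCN KD samples lay below both Ctrl samples, and the mean in MYCN KD was 73.7% of that in Ctrl. The log2 fold change was -0.43 (SE 0.04, 95% interval -0.55 to -0.30, adjusted p = 0.00791 by limma), and 13.2% of all tested genes had a lower value.

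IGF2BP3 (chr7:23349828-23510110, - strand, 15 exons) was at 18.7 and 21.3 RPKM in Ctrl against 22.3 and 19.7 in MYCN KD. The groups overlapped, and the log2 fold change was 0.07 (SE 0.10, 95% interval -0.23 to 0.37, adjusted p = 0.600 by limma). Without Ctrl 1 or without MYCN KD 1 its sign turned, to -0.02 in each case. In the GENCODE annotation its exons share 1521 bases with MALSU1 on the other strand, a mitochondrial ribosome assembly factor at 45.1 and 47.3 RPKM in Ctrl against 36.7 and 35.1 in MYCN KD. Whether the counting used strand is not given in the sources used here, so reads of these overlapping genes may not be separable. IGF2BP2 (chr3:185360918-185542830, - strand) had 0 reads in both Ctrl samples, which allows up to 3 reads of 66119927, and 1 read in MYCN KD 1.

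Within a sample, IGF2BP1 made up 62.9% and 60.8% of the summed RPKM of the family in Ctrl and 52.1% and 54.3% in MYCN KD. The summed level was 50.3 and 54.3 RPKM in Ctrl against 46.6 and 43.0 in MYCN KD, and the MYCN KD mean was 85.7% of the Ctrl mean. Neither sum nor ratio could reach significance in an exact two-sided permutation test of 2 against 2 samples, where the smallest p is 0.333. The log2 ratio of IGF2BP1 to IGF2BP3 was 0.67 ± 0.09 (SD, n = 2) in Ctrl and 0.18 ± 0.09 in MYCN KD, a difference of -0.49 (exact p = 0.333, adjusted p = 0.467 over 7 pairs). The samples did not overlap in this ratio, since the lowest Ctrl value was 0.61 and the highest MYCN KD value 0.24. The difference between IGF2BP1 and IGF2BP3 in response is therefore described here and not established by a test.

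**Figure D3:**
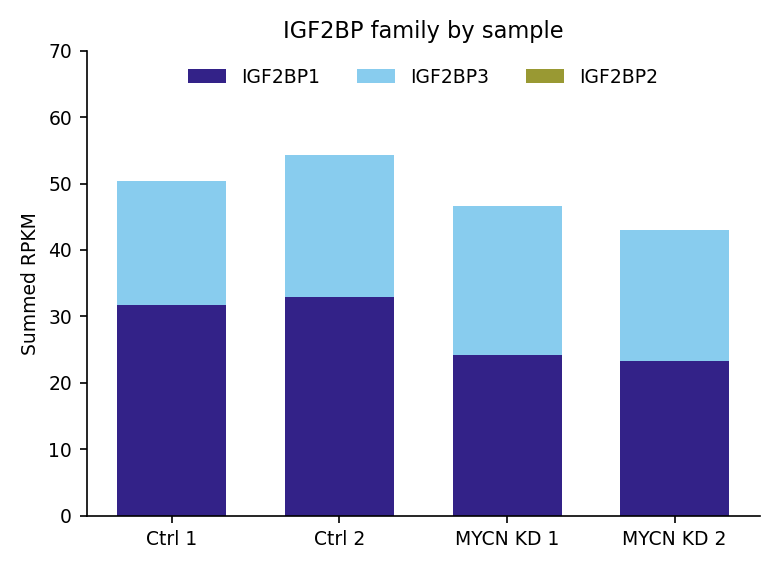
Stacked RPKM of IGF2BP1, IGF2BP3 and IGF2BP2 in each of the 4 samples (axis from 0), with their sum as the full height of each bar and IGF2BP2 too low to be seen. IGF2BP1 falls from 31.7 and 33.0 to 24.3 and 23.4 RPKM, while IGF2BP3 lies between 18.7 and 22.3 RPKM in all 4 samples.

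HMGA1, a chromatin protein known to be induced by MYC factors, had the largest change of the 7 members tested. HMGA1 (chr6:34204650-34214008, + strand, 6 exons) was at 273.9 and 255.7 RPKM in Ctrl against 150.8 and 161.4 in MYCN KD, with 10513 to 22441 reads a sample. Every MYCN KD sample lay below every Ctrl sample, and the mean in MYCN KD was 58.9% of that in Ctrl. The log2 fold change was -0.76 (SE 0.06, 95% interval -0.94 to -0.58, adjusted p = 0.00546 by limma), which ranked 436 from the lowest among the 11411 tested genes. Its pseudogene HMGA1P7 was between 0.143 and 0.207 RPKM, so reads listed for that copy were few beside those of HMGA1. HMGA2 (chr12:66218240-66360071, + strand), the paralog with the most let-7 matches among the members, was listed at 0 in all 4 samples.

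The microRNA processing enzymes did not pass the test. DROSHA (chr5:31400601-31532303, - strand, 36 exons), the nuclear RNase III, was at 27.6 and 29.9 RPKM in Ctrl against 25.3 and 23.4 in MYCN KD. Its groups did not overlap, and the log2 fold change was -0.23 (SE 0.07, 95% interval -0.43 to -0.04, unadjusted p = 0.0318, adjusted p = 0.0617 by limma). DICER1 (chr14:95552565-95624347, - strand, 27 exons), the cytoplasmic RNase III, was at 12.3 and 15.1 RPKM in Ctrl against 17.5 and 14.4 in MYCN KD. Its groups overlapped, with a log2 fold change of 0.21 (SE 0.15, 95% interval -0.23 to 0.64, adjusted p = 0.315 by limma). Without Ctrl 2 or without MYCN KD 2 the log2 fold change of DICER1 was 0.34, and without Ctrl 1 or without MYCN KD 1 it was 0.07. An antisense gene, DICER1-AS1, shares 80 exon bases with it and had 9 to 41 reads a sample, against 4512 to 5449 reads of DICER1.

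DIS3L2 (chr2:232825955-233209060, + strand, 21 exons), which degrades tailed let-7 precursors, was at 8.73 and 8.77 RPKM in Ctrl against 9.38 and 9.35 in MYCN KD. The groups did not overlap and MYCN KD was at 107.0% of Ctrl, with a log2 fold change of 0.09 (SE 0.04, 95% interval -0.02 to 0.20, adjusted p = 0.135 by limma). The log2 ratio of DROSHA to DICER1 was 1.02 ± 0.11 (SD, n = 2) in Ctrl and 0.58 ± 0.11 in MYCN KD, a difference of -0.44 (exact p = 0.333, adjusted p = 0.467 over 7 pairs). For DROSHA against its partner DGCR8 the difference was -0.21 (exact p = 0.333), the smallest p that this design allows.

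**Figure D4:**
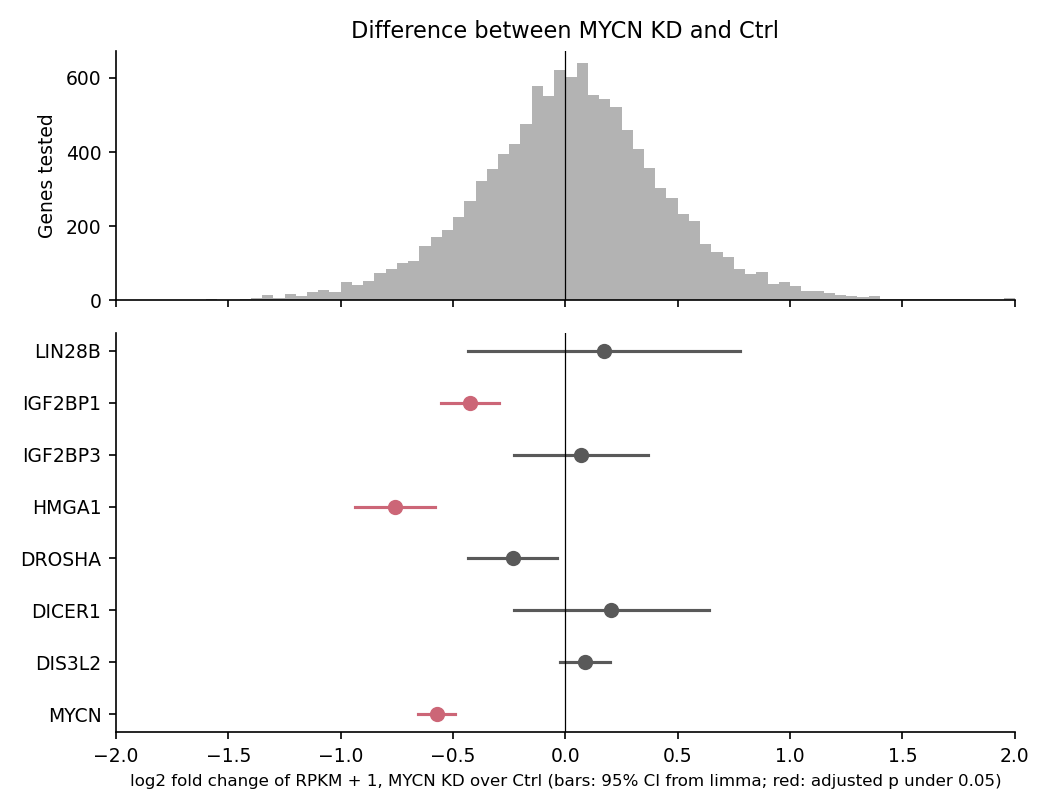
Log2 fold change of MYCN KD over Ctrl on the log2(RPKM + 1) scale for the 7 tested members and MYCN (points, with bars for 95% limma intervals and red for an adjusted p under 0.05), below the distribution of all 11411 tested genes (values beyond the axis are pooled in the end bins). HMGA1 at -0.76 and IGF2BP1 at -0.43 have intervals below 0 and an adjusted p under 0.05, DROSHA has an interval below 0 but an adjusted p of 0.0617, and the intervals of the other 4 members hold 0.

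MYC factors bind the E-box, whose best known form reads CACGTG and is the same on both strands. RefSeq windows of GRCh38.p14, from 250 bases before a transcript's start to 50 after it, were searched for these letters. Of 35116 windows, 7.26% held CACGTG and 0.664% held it more than once. IGF2BP3 held it at -174 and -146 from the start, and LIN28B held 1 at -47 in the window of its downstream start only. The windows of HMGA1 (2 starts), IGF2BP2 (2), DICER1 (5), DROSHA (1) and DIS3L2 (1) did not hold these letters, which says nothing about binding of MYCN elsewhere. No window was matched to LIN28A, IGF2BP1 and HMGA2, so their promoters were not searched. Whether these letters go with the response of the members was not tested. The windows of IGF2BP3 and LIN28B that held CACGTG and the upstream window of HMGA1 are shown, with CACGTG in capitals. The 50 bases after the start are left out.
IGF2BP3, chr7:23470492-23470741 (-): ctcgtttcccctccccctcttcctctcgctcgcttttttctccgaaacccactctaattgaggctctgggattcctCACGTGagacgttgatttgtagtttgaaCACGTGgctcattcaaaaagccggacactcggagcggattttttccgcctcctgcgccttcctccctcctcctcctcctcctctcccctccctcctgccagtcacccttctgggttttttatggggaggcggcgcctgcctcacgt
LIN28B, downstream start, chr6:104956857-104957106 (+): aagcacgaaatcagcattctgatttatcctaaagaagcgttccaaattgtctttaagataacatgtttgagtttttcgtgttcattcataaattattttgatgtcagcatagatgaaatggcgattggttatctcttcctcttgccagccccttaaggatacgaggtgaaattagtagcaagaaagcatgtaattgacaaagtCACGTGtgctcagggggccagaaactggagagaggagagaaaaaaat
HMGA1, upstream start, chr6:34236623-34236872 (+): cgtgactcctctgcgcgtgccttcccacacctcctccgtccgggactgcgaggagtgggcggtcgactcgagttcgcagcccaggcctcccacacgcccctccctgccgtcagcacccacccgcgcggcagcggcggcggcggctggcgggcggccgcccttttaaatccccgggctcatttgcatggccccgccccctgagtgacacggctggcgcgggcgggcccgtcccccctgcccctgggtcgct

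Across the tested genes with a window, the 1119 genes with CACGTG had a median log2 fold change of -0.07, with 32.5% lower and 19.7% higher. Among the 7370 genes without these letters 21.4% were lower and 25.6% higher, with a median of 0.04. For let-7 sites the shares lay closer together: 20.1% of the 413 genes with an 8-base site were lower and 23.0% higher, against 23.1% and 25.2% of the 9532 genes without one. These shares are descriptions across genes, which are not independent replicates.

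Of 15 further genes for microRNA biogenesis and Argonaute proteins, 6 were lower, 2 were higher and 7 did not pass the test, and their median log2 fold change was -0.11. The size of this median was not stable, at -0.180 without Ctrl 2, -0.185 without MYCN KD 2, -0.245 with a filter at a mean RPKM of 5, -0.0463 with equal RPKM totals and -0.0551 with quantile normalization. XPO5, which exports precursors from the nucleus, fell from 43.9 ± 1.46 to 25.1 ± 0.768 RPKM (SD, n = 2; log2 fold change -0.78, adjusted p = 0.00414 by limma). RAN, the GTPase that drives this export, fell from 299 ± 7.54 to 217 ± 5.06 RPKM (-0.46). Of the Argonaute proteins, which carry mature microRNAs, AGO1 and AGO2 fell by 0.25 and 0.27 on the log2 scale, and AGO4 rose by 0.37 from a level of 0.840 RPKM. Of the TNRC6 scaffolds that silence targets with them, TNRC6C was lower (-0.53) and TNRC6B higher (0.61). ADAR, which edits precursors among other RNAs, was also lower (-0.31). DGCR8, the partner of DROSHA, stood at a log2 fold change of -0.03 (adjusted p = 0.589, limma). With each of the 4 samples left out in turn, the log2 fold change was -0.25 to -0.24 for AGO1 and -0.28 to -0.25 for AGO2. With a replicate block AGO1, AGO2 and ADAR did not pass (adjusted p = 0.276, 0.186 and 0.0647, limma).

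Of 12 genes for tailing, decay and other control of let-7 precursors, 11 were tested, 3 were lower and 8 did not pass. TRIM25, a cofactor of tailing by TUT4, fell from 16.8 ± 0.482 to 9.22 ± 0.272 RPKM (SD, n = 2; log2 fold change -0.80, adjusted p = 0.00407 by limma). HNRNPA1, a nuclear protein that binds the precursor of let-7a, and DIS3L, a relative of DIS3L2, were lower by log2 values of -0.40 and -0.27. With each sample left out DIS3L was at -0.29 to -0.26, and with a replicate block it did not pass (adjusted p = 0.218, limma). The uridylyltransferases themselves did not pass, with log2 fold changes of 0.04 for TUT4 and 0.34 for TUT7 (adjusted p = 0.0787, limma). TUT7, listed as ZCCHC6, was at 0.24 to 0.44 with each sample left out.

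let-7 transcripts were hardly seen. Of 15 primary transcripts and hairpins, 7 were listed at 0, 5 lay below a mean of 1 RPKM and 3 were tested without passing. The host transcript MIRLET7BHG was at 1.89 and 1.74 RPKM in Ctrl against 1.90 and 2.07 in MYCN KD (log2 fold change 0.09, adjusted p = 0.266 by limma). MIR99AHG, which holds let-7c, was at 2.27 and 1.88 RPKM in Ctrl against 2.53 and 3.06 in MYCN KD (0.30, adjusted p = 0.0986 by limma). Its log2 fold change was 0.20 to 0.40 with each sample left out. The third, the hairpin of let-7d (MIRLET7D), rested on 2 to 3 reads a sample. The hairpins had at most 6 reads a sample and did not move one way: MIRLET7I had 1 and 0 reads in Ctrl and 3 and 5 in MYCN KD, while MIR98 had 5 and 6 reads in Ctrl against 2 and 1 with MYCN KD, and MIRLET7C had 2 and 1 reads in Ctrl against 0 with MYCN KD. A further host transcript, MIR100HG, lay below the filter, with 9 and 7 reads in Ctrl against 14 and 19 in MYCN KD. Hairpins are too short to be well covered by such libraries, so these values do not measure let-7 itself.

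Among 26 other textbook targets of let-7, 23 were tested, 5 were higher, 5 were lower and 13 did not pass. Their median log2 fold change was 0.03, as was that of all tested genes, but without Ctrl 1 it was 0.109 against 0.00532 for all, and without MYCN KD 1 it was 0.107 against 0.00555. MYC had the largest change, from 0.780 and 0.542 RPKM in Ctrl to 6.73 and 9.32 RPKM in MYCN KD (log2 fold change 2.43 on the log2(RPKM + 1) scale, adjusted p = 0.00497 by limma). ARID3B, a DNA-binding protein, rose by 0.66, and IGF1R, the receptor for insulin-like growth factors, by 0.54 on the log2 scale. E2F5, a cell cycle transcription factor, and CDC25A, a phosphatase that activates cyclin-dependent kinases, fell by 1.32 and 0.86 on the log2 scale. MYCN itself is in this list. NRAS (log2 fold change -0.05), CDK6 (-0.19) and CCND1 (0.15) did not pass, and CCND2 lay below the filter. CDK6 was at -0.36 to -0.02 with each sample left out. CCND1 passed as higher with a filter at a mean RPKM of 5, equal RPKM totals, quantile normalization or voom.

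Among genes tied to the IGF2BP proteins, the partner proteins that passed were lower and the client transcripts that passed were higher. Of 7 proteins known to join them on messenger RNAs, 4 were lower: YBX1 (log2 fold change -0.35), DHX9 (-0.43), ELAVL1 (-0.21) and PABPC1 (-0.79), the poly(A)-binding protein. SYNCRIP was at -0.42 (adjusted p = 0.0579, limma). With each sample left out, SYNCRIP was at -0.52 to -0.31 and ELAVL1 at -0.24 to -0.17. With a replicate block SYNCRIP passed and ELAVL1 did not (adjusted p = 0.0184 and 0.286, limma). YBX1 and ELAVL1 also did not pass with no filter, equal RPKM totals or quantile normalization. Of 9 transcripts known to be bound by IGF2BP proteins, 7 were tested and 5 were higher, with a median log2 fold change of 0.52. Over all tested genes 25.3% were higher and 22.8% lower. The lists were chosen with earlier results of these data known, so these counts are a description. IGF2, the growth factor that gave the family its name, rose from 22.2 and 22.4 RPKM in Ctrl to 32.5 and 32.2 RPKM in MYCN KD (0.52, adjusted p = 0.00440 by limma). ACTB rose by 0.57 and BTRC by 0.49 on the log2 scale, MYC is in this list too, and ABCB1 (0.12) and MKI67 (0.00) did not pass. H19 and CD44 lay below the filter.

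Of 8 other HMG chromatin proteins, HMGB1 (-0.50) and HMGN5 (-1.09) were lower, HMGB3 (0.13) was higher, and 5 did not pass. HMGB3 was at 0.13 to 0.14 with each sample left out and did not pass with a replicate block (adjusted p = 0.528, limma). HMGB1 did not pass with no filter, equal RPKM totals or quantile normalization. RAN, AURKA and TPX2, linked to LIN28B in neuroblastoma through RAN and Aurora kinase A, were all lower, with log2 fold changes of -0.46, -0.70 and -0.79. Over all tested genes 22.8% were lower. In these 8 lists together, 34 of the 74 different genes tested passed the threshold, a share near the 48.1% of all genes.

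**Figure D5:**
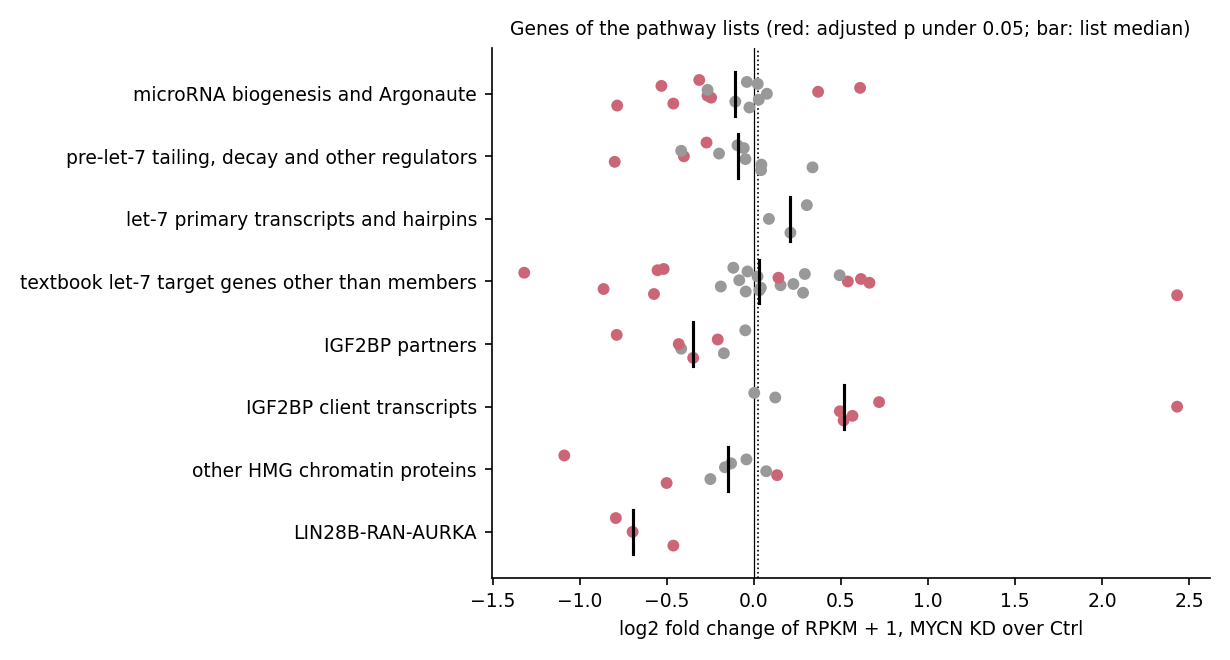
Log2 fold change of MYCN KD over Ctrl for every tested gene of the 8 lists (1 row a list, red points past an adjusted p of 0.05, black bars at the list medians), with a dotted line at the median of all tested genes (0.03). The partner list and RAN, AURKA and TPX2 lie to the left of it, the IGF2BP client list lies mostly to the right with MYC at 2.43, and the let-7 target list spreads to both sides.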

How the data were processed

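Total RNA of 4 samples was sequenced, and groups and replicate numbers were taken from the sample titles. HISAT2 2.1.0 was used by the authors for mapping to hg19 and featureCounts for counting per RefSeq gene. The authors then applied DESeq2 and corrected for unwanted variation by RUVSeq, and the RPKM values deposited, 1 file a sample, derive from the normalized counts. The RUVSeq variant and number of factors, and whether counting used strand, are not given in the sources used here. Such an adjustment can change the spread between replicates, on which every p-value rests. Replicate deviations of the groups were also mirrored (correlation -0.98), so they were not independent as limma assumes. The standard errors, intervals and p-values of limma all carry this limit, and its size was not tested.

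Here log2(RPKM + 1) was taken for the 11411 genes whose mean RPKM reached 1 and was fitted with limma 3.58.1 in R 4.3.3 (lmFit, eBayes with a trend, no block, two-sided), with Benjamini-Hochberg adjustment over all of them and a threshold of 0.05. Fold changes on this scale understate the change of low genes. Ratios and family sums were compared by exact permutation tests. Reads were recovered from the RPKM steps: all 19908 genes above 0 gave whole reads in every sample, within 0.0001 reads beyond the rounding in the files. The smallest gene length that did so was taken, so the reads of some genes may be too low by a whole factor. Counting intervals cover counting error only. The scripts for the recovery and the fit were tested on simulated data, where the share of false calls was above the nominal threshold. Positions and 3′ UTRs came from GENCODE release 44 lifted to GRCh37, and microRNA and promoter sequences from RefSeq tables of GRCh38.p14. Tables were handled in Python 3.11.15 with pandas 2.3.3, exact tests ran with numpy 2.4.6 and scipy 1.17.1, and plots were drawn with matplotlib 3.10.9.

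The members and the gene lists were chosen with earlier results of these data known. By rule, the text names all members, MYCN, any gene of a list of 15 genes or fewer, and in the let-7 target list 9 fixed genes and the 3 largest changes past the threshold. Some genes of the lists are not reported here by name. HMGA1P7, MALSU1, DICER1-AS1 and MIRLET7DHG were named after their values were seen. Alternatives were limma voom on the recovered reads, a pseudocount of 0.1, no filter or a mean RPKM of 5 as the filter, quantile normalization or equal RPKM totals, no trend in eBayes, a replicate block, and every sample omitted once.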

Additional observations from a re-analysis of the deposited data

How the results depend on the processing

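HMGA1, IGF2BP1 and MYCN kept their direction under all 13 alternatives run, with quantile normalization giving log2 fold changes of -0.63, -0.41 and -0.38. They passed the threshold in every alternative fitted to all 4 samples. Among these, the crossed replicate block described below called nearly all genes and so is no check. The lowest and highest values with 1 sample left out at a time (the lone sample of a group is then assumed to vary like the other group) were -0.81 and -0.71 for HMGA1, -0.45 and -0.40 for IGF2BP1, -0.58 and -0.57 for MYCN, -0.29 and -0.18 for DROSHA, 0.0696 and 0.341 for DICER1, 0.0854 and 0.0915 for DIS3L2, -0.0186 and 0.365 for LIN28B, and -0.0207 and 0.160 for IGF2BP3. Without Ctrl 1 and without MYCN KD 1 the signs of LIN28B (-0.0186 and -0.0136) and IGF2BP3 (-0.0207 and -0.0176) reversed, as did the differences of the log2 ratios of IGF2BP2 to IGF2BP3 (0.0272 and 0.0176, range -0.153 to 0.0272) and LIN28A to LIN28B (0.0194 and 0.0196, range -0.353 to 0.0196) and of the summed RPKM of the LIN28 genes (-0.0759 and -0.264, range -0.264 to 4.04). Leaving out replicate 1 of either group shifted these values the same way, because the replicate deviations of the groups were mirrored (correlation -0.98). The cause of this mirroring was not tested. With such mirrored deviations the fits with a sample left out are not separate checks, and their calls are not reported here. Where the filter was a mean RPKM of 5, so that fewer genes were tested, 1868 genes were higher, and the let-7 transcript list gave no value.

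Same-numbered samples of the groups deviated in opposite ways in the adjusted values (correlation -0.98). Since the values had been adjusted before deposit, this does not show whether same-numbered samples were handled together. With the replicate block 2077 genes were higher and 1851 lower, no call of a tested member changed (adjusted p by limma 0.0176 for IGF2BP1 and 0.234 for DROSHA), and 27 of the 34 calls in the lists were kept. A crossed replicate block (Ctrl 1 with MYCN KD 2) was chosen after seeing the data. It called 5910 genes higher and 5262 lower of the 11411 tested, and 30 and 42 of the 74 list genes. LIN28B (0.173), IGF2BP3 (0.0694), DROSHA (-0.234), DICER1 (0.205) and DIS3L2 (0.0884) were called too. Since nearly every gene was called, these calls say nothing about the members. Depth limits what can be said of LIN28A, IGF2BP2, HMGA2 and the let-7 hairpins.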

Other observations

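MIRLET7DHG, the host transcript of let-7d, was not in the lists and was looked up after the other values were seen. It stood at 0.369 and 0.348 RPKM in Ctrl (17 and 15 reads) and at 0.714 and 0.719 RPKM in MYCN KD (28 and 30 reads). The groups did not overlap, but the gene lay below the filter of a mean of 1 RPKM and was not tested.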
